A study of Mus musculus with 12 samples.

Results

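Dimethylation of histone H3 at lysine 9 (H3K9me2) in the prefrontal cortex of FAD mice, a model with familial Alzheimer's disease mutations, was compared with that of wild-type (WT) mice after the reads of all called regions had been summed per gene and per megabase. The regions of the FAD against WT table are short and hold few reads each, so single regions carry large counting error, and sums over several regions carry less. A bin held a median of 13 regions but a gene a median of 1, and 2289 of the 4285 genes held 1 region. For those genes the sum is a single region and adds no reads. The members are 4285 genes, which together hold 12708 of the 33787 regions (37.6%), and 2273 autosomal bins of 1 Mb, which hold 33490 regions. All reads of regions overlapping a gene, or otherwise lying closest to its transcription start, were given to that gene. Of the genes 3747 passed the filter on low counts and were tested, and 538 did not. In 1634 of the tested genes every region was given by the closest start. Of the bins 2241 were tested and 32 were not.

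The groups were 2 FAD and 2 WT mice of the strain C57BL/6, aged 5 to 6 months, and neither group is labelled as having received an agent. From each mouse came 1 ChIP library and 1 input library (sheared chromatin without the antibody), so that 8 of the 12 libraries of the series were used. The labels do not name the FAD alleles, the promoter that drives them or the sex of the mice. Tissue was cross-linked in 1% formaldehyde for 12 min. The values thus describe 2 mice per group and bulk tissue, in which fewer cells carrying the mark and less of the mark per cell cannot be told apart.

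H3K9me2 is a mark of silent chromatin that is laid down mainly by the methyltransferases EHMT1 (GLP) and EHMT2 (G9a), and it is read by proteins that compact chromatin and hold it at the nuclear periphery. In brain it covers broad domains, often poor in genes, in which large gene families of other tissues, such as olfactory receptors, lie silent. Neuronal EHMT1/2 activity is known to matter for learning, and the enzyme pair has been studied as a target in models of Alzheimer's disease. The comparison addresses where the mark differs in the FAD mice.

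Most regions lay away from promoters, since 149 of 33787 (0.441%) reached a RefSeq promoter window, which spans 250 bases before to 50 after a transcription start. The pair printed here are windows, the first in part, that regions of the table reach and on which later results turn. The first is the promoter of Nppb, which encodes brain natriuretic peptide and belongs to the heart muscle genes described further on. The second is the stretch upstream of Thy1, which encodes a glycoprotein of the neuronal surface and whose promoter drives many neuronal transgenes. RefSeq gives this second window to Gm39323, a predicted gene on the opposite strand, while the table gives the region to Thy1 as the closest start, with its centre at -1150 bp from that start. Both are taken from RefSeq (GRCm38.p6) and written along the plus strand, and capitals mark the bases inside the region of the table (with an uncertainty of 1 base at the region's ends, as whether the files count from 0 or 1 is not given).
Nppb promoter (chr4:147985650-147985785): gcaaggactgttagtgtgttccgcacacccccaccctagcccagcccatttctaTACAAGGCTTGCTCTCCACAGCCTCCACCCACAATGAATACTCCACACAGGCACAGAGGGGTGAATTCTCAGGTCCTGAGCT
Thy1 upstream window (chr9:44042135-44042434): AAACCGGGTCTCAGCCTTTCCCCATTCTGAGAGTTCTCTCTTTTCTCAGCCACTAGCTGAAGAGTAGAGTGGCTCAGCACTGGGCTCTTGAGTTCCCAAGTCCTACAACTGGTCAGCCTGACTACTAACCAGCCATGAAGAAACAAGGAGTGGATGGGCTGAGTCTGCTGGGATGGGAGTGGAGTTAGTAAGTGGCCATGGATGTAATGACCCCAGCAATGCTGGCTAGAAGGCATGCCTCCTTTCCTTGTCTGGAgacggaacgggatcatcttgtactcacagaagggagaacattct
The region at Nppb spans 147985704 to 147986374 on chromosome 4 and covers 82 bases of the printed stretch, and the region at Thy1 spans 44042078 to 44042390 on chromosome 9 and covers 256 bases. The Nppb stretch stops before the first RefSeq start of the gene.

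ChIP libraries held 24.94 M (the library labelled FAD 1) and 20.8 M reads (FAD 2) in FAD and 24.49 and 26.58 M in WT. Input libraries held 14.36 to 23.76 M. The regions held between 2.00% and 3.70% of the reads of a ChIP library, with a median of 24.5 reads per library for a tested gene and 196.5 for a tested bin. The library labelled FAD 1 did not share the reads of the other FAD mouse at Thy1: the ChIP counts there were 4 (labelled FAD 1) and 839 (FAD 2) in FAD against 5 and 2 in WT, and the input counts were 9, 363, 2 and 12. It also held more reads than the other libraries over the listed heart muscle genes in sum. Whether its genotype label and its tissue are right was not tested, so n = 2 FAD mice stands for the mice as labelled, and results that rest on it are given with and without it. Markers of cortical neurons had regions in 10 of 22 listed genes, those of astrocytes in 2 of 10, of oligodendrocytes in 2 of 13, of endothelial and mural cells in 6 of 11 and of microglia in 0 of 12. Presence of a region shows the mark and not expression, so the tissue could not be checked from these lists.

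Reads in the regions as a whole were highest in FAD ChIP 2. Summed over all regions, the ChIP libraries held 20010 and 21540 RPM (reads per M library reads) in WT, against 37020 in FAD 2 and 21490 in the library labelled FAD 1. Where FAD ChIP 2 was the sole library with a call, in 20360 regions, the sums were 9104 and 10380 RPM in WT, 25190 in FAD 2 and 10510 in the library labelled FAD 1. In the other 13427 regions they were 10900 and 11160 RPM in WT, and 10980 and 11830 in FAD, and the groups overlapped. In the 1731 of these called in at least 2 libraries, FAD 2 was again the highest, at 5668 RPM, against 3373 and 4167 in WT and 3996 in the library labelled FAD 1. The choice of regions fixes much of these contrasts, since a region called in 1 library is high there: the first set is chosen for high values in FAD 2, and the remainder keeps 5145 regions called in WT 1 alone and 3392 in WT 2 alone. Each sum below depends on how many regions of each kind it takes in.

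**Figure D1:**
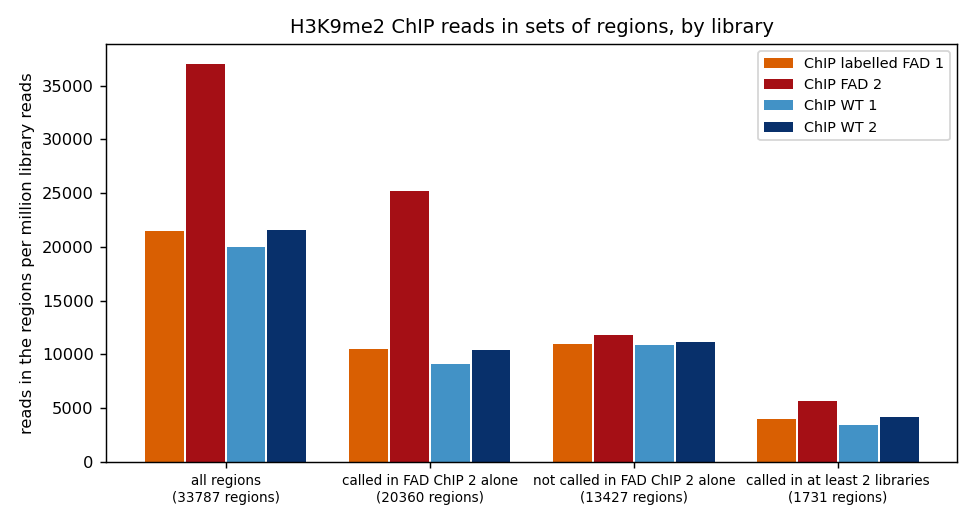
ChIP RPM (vertical axis, from 0) summed over 4 sets of regions, with 1 bar per library and no replicate error. FAD ChIP 2 stands above the others over all regions (37020) and in regions it alone called (25190), while the 4 libraries lie between 10900 and 11830 in the remaining regions.

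No gene sum passed the test of FAD against WT. Scaled by TMM (trimmed mean of M values, which takes most sums as unchanged), 0 of 3747 genes reached an adjusted p under 0.05 by the quasi-likelihood test of edgeR (0.0% called), and the smallest adjusted p was 0.928. At an unadjusted p under 0.05, 50 genes (1.33%) were higher and 121 (3.23%) lower. DESeq2 called 1 gene, the lower Gm15319 (0.0233% of 4285). Its counts before adjustment were 20 higher (0.467%) and 83 lower (1.94%). Over genes, the SD of the log2 ratio was 0.85 between the FAD mice, 0.85 between the WT mice and 0.62 between the means of the groups, where the spread within groups alone gives 0.60. The median SE of a gene's log2 fold was 0.52. With TMM both FAD mice lay above both WT mice in 707 of the 3747 tested genes (18.9%) and below both in 608 (16.2%). In RPM these counts were 1253 and 129. The genes named below are those with the smallest p, and none passed the test with TMM and all 4 libraries.

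Il1f8, an interleukin-1 family cytokine gene on chromosome 2, had the smallest p among the genes with more reads in FAD that the naming rule takes (at or above the median count, the same direction in both replicate numbers, no predicted genes). Its 2 regions, between 24139535 and 24150277 and upstream of the gene, held 59 (labelled FAD 1) and 58 (FAD 2) reads in FAD against 14 and 19 in WT. Both FAD mice lay above both WT mice, and the log2 fold was 1.48 ± 0.43 (SE, n = 2 mice per group), with an adjusted p of 0.928 in edgeR. The inputs held 4 and 4 reads in FAD against 10 and 11 in WT. Without the library labelled FAD 1 the log2 fold was 1.07.

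Most of the other genes with more reads in FAD were long, and part or all of their regions overlapped the gene. Slc7a11, which encodes the cystine and glutamate exchanger, held 30 and 52 reads in FAD against 8 and 16 in WT (log2 fold 1.36 ± 0.50, SE). Slco3a1, an organic anion transporter gene, held 53 and 77 reads in FAD against 23 and 27 in WT. Col19a1, which encodes a collagen, held 62 and 122 reads in FAD against 36 and 42 in WT. All 5 of its regions were called in FAD ChIP 2 alone, as were 2 of 2 at Slc7a11 and 3 of 4 at Slco3a1. Of all regions given a gene, 58.8% were so called, and such regions are high in FAD 2 by their choice. In each of these 3 genes FAD ChIP 2 was the highest library and the groups did not overlap. With TMM 18.9% of all tested genes had groups apart in this direction, and the naming rule favours such genes. Fbxw25, an F-box gene of a cluster on chromosome 9, held 73 and 69 reads in FAD against 27 and 27 in WT, so that the mice of a group were alike there. Asap1, which encodes a regulator of Arf GTPases, held 56 and 31 reads in FAD against 11 and 15 in WT, and here the library labelled FAD 1 was the higher, with a log2 fold of 1.47 with and 0.51 without it. Fbxw25 likewise stood at 1.05 with and 0.60 without that library. It is a gene of 20.3 kb, and 2 of its 4 regions overlap it. Of the 3 regions of Asap1, 1 overlaps the gene and held 23 and 9 reads in FAD against 4 and 6 in WT. The others are centred at -205058 and -235946 bp from its start. The log2 folds of Sh3rf3, Spats2l and Fndc1 were 1.31, 0.80 and 0.89. Of their regions 2 of 3, 4 of 5 and 4 of 4 were called in FAD ChIP 2 alone. The tenth gene, Actc1, is described with the heart muscle genes. None of these 10 passed the test with either scaling except Actc1, which passed with library totals.

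Genes with fewer reads in FAD included a few with very strong single regions. Ovol2, a zinc-finger regulator of epithelial identity, is given 1 region of 262 bp on chromosome 2 (144338252 to 144338514), with its centre at -6688 bp from the start of the gene. It held 285 (labelled FAD 1) and 92 (FAD 2) reads in FAD against 1104 and 419 in WT, while the inputs held 1 to 12 reads. Both FAD mice lay below both WT mice, yet the mice of a group differed by more than the library labelled FAD 1 did from WT 2 (log2 fold -2.23 ± 0.64, SE, adjusted p 0.928 in edgeR). Mrc2, which encodes an endocytic collagen receptor, had 1 region in its first intron (chromosome 11, 105319783 to 105320262). It held 56 and 24 reads in FAD against 225 and 77 in WT (log2 fold -2.21 ± 0.61, SE). Qpct, the gene of glutaminyl cyclase, an enzyme that makes the pyroglutamate form of amyloid beta, held 162 and 154 reads in FAD against 340 and 211 in WT. Its log2 fold was -1.15 ± 0.34 (SE) with TMM. In RPM its groups almost touched, at 7.40 in FAD 2 and 7.94 in WT 2.

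Weaker sums made up the rest of the lower genes. Cyp7b1, an oxysterol hydroxylase of the acidic route of bile acid synthesis that is also active in brain, held 22 and 22 reads in FAD against 54 and 41 in WT over 3 regions of its first intron. Pappa, a protease that releases insulin-like growth factor, held 17 and 11 reads in FAD against 42 and 34 in WT. In both genes the FAD mice lay below the WT mice, as in 16.2% of all tested genes with TMM. Gpr137c, a receptor-like gene, held 23 and 26 reads in FAD against 49 and 49 in WT. Prps1l1 (21 and 23 against 46 and 44 reads) is a gene of nucleotide synthesis used in testis. Slc22a28, an organic anion transporter gene, held 18 and 50 reads in FAD against 63 and 61 in WT. Its level in FAD 2, 2.40 RPM, lay between those of the WT mice, 2.57 and 2.30, so that only the TMM scale separated the groups. The log2 folds of Arhgap20 and Defa21 were -1.34 and -2.13. Both regions of Arhgap20 were called in WT 2 alone, and in RPM its groups almost touched, at 1.44 in FAD 2 and 1.47 in WT 1. None of the 10 passed with all 4 libraries under either scaling. In contrast to most of the higher genes, they had no region called in FAD ChIP 2 alone.

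**Figure D2:**
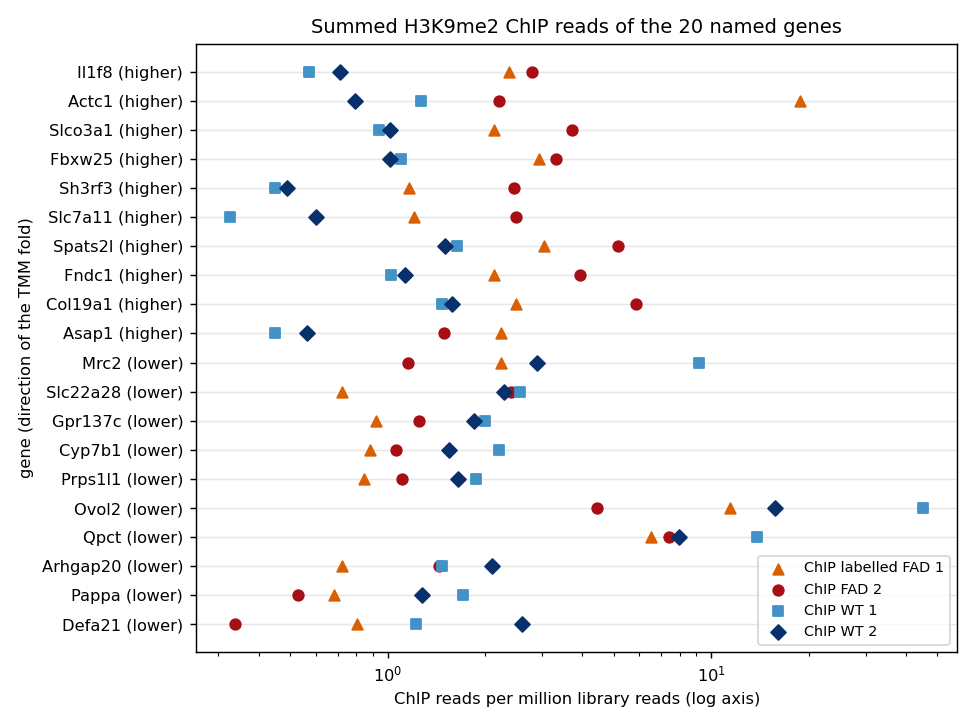
ChIP RPM (log axis) summed over the regions of each of the 20 named genes, with 1 point per library and no error bars. Genes named as higher have both FAD points to the right of both WT points, and Actc1 stands out with the library labelled FAD 1 at 18.8. The FAD and WT points of Slc22a28 overlap on this scale, and those of Qpct and Arhgap20 nearly do.

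Without the library labelled FAD 1, the comparison set 1 FAD mouse against 2 WT mice, and the lone sample is assumed to vary like the WT mice. With TMM 30 of 4202 genes then passed in edgeR, 1 higher (0.0238%) and 29 lower (0.690%), and the higher one was Thy1. Ovol2 stood at a log2 fold of -3.82, Mrc2 at -3.42 and Defa21 at -3.52. Leaving out FAD 2 in its place, the values were -1.47, -1.48 and -1.32, and 15 genes passed as higher (0.377%) and 3 as lower (0.0755%). The genes that passed as lower without FAD 2 were Ovol2, Mrc2 and Gm15319, and not Defa21. Each of them also passed as lower without the library labelled FAD 1. At Gm15319 the log2 fold was -1.32 without FAD 2 and -2.39 without the library labelled FAD 1. These leave-out fits share the WT libraries, so they are set side by side and are not independent. Leaving out WT 1, 0 genes passed, and leaving out WT 2, 6 passed as higher and 11 as lower.

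Library totals as scaling moved the whole distribution and not a set of genes. The median log2 fold of all tested genes was 0.00 with TMM and 0.59 with library totals. With totals 3 genes passed as higher (0.0806% of 3722), all heart muscle genes (Mb, Actc1 and Myh6), and 0 as lower, and before adjustment the counts at p under 0.05 were 94 higher (2.53%) and 8 lower (0.215%). With library totals and without the library labelled FAD 1, 543 of 4219 genes passed as higher (12.9%) and 12 as lower (0.284%), and the median was 1.04. When the regions called in FAD ChIP 2 alone were also left out, 0 genes passed as higher and 5 as lower (0.220% of 2272), and the median was -0.15. The share of genes with a positive log2 fold was 86.2% before and 41.2% after these regions were left out. This filter removes regions for being high in FAD 2 and keeps those called in a WT library alone, so it lowers the fold by its construction, and these values show how far the sums depend on the set of regions and no more. Over all tested genes, FAD 2 lay above both WT mice in RPM in 83.0%, and the library labelled FAD 1 in 36.3%. 

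Gene families of the synapse and of silent chromatin gave no call in any list with TMM and all 4 libraries. The list medians given below ran from -0.28 (metabotropic receptors) to 0.10 (zinc-finger genes). Without the library labelled FAD 1 the medians of these lists ran from -0.38 (very long brain genes) to 0.21 (zinc-finger genes) with TMM. The lists were drawn up with earlier results of these data known, so their counts are a description. Beside each, the median log2 fold of all genes is 0.00 with TMM and 0.59 with library totals. Of 9 ionotropic glutamate receptor genes, the channels of fast excitation, 0 were called and 7 had a negative log2 fold, with a median of -0.16 (0.40 with totals). Grin2a, an NMDA receptor subunit gene on chromosome 16, held 192 and 247 reads over 12 regions in FAD against 125 and 160 in WT (log2 fold 0.25 ± 0.25, SE). The 5 metabotropic receptor genes had a median of -0.28 and the 12 GABA receptor genes -0.17. Gabra2, a GABA-A receptor subunit gene, held 68 and 106 reads in FAD against 107 and 94 in WT, with a log2 fold of -0.62 with TMM and -0.02 with totals.

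Of 29 tested genes of synaptic adhesion and scaffolds, 23 had a negative log2 fold with TMM and 6 a positive one, with a median of -0.17, while all genes gave 1857 negative and 1890 positive. At an unadjusted p under 0.05 2 of them were lower, where 3.23% of all genes were. Slitrk5, which encodes a synapse-inducing membrane protein, held 73 and 115 reads in FAD against 124 and 98 in WT over 6 regions, none of which overlaps the gene (-0.65 ± 0.28, SE). Of 17 cadherins and non-clustered protocadherins 11 were negative, and Cdh7, a classical cadherin gene, held 54 and 76 reads in FAD against 80 and 93 in WT (-0.80 ± 0.28, SE). The 28 voltage-gated and leak channel genes had a median of -0.06. Cacna2d3, which encodes an auxiliary subunit of calcium channels, held 337 and 525 reads over 27 regions in FAD against 234 and 274 in WT (0.36 ± 0.23, SE), and 20 of its regions were called in FAD ChIP 2 alone. The 24 axon guidance genes had a median of -0.14. Plxna4, a semaphorin co-receptor gene, held 127 and 203 reads in FAD against 88 and 88 in WT, and 8 of its 9 regions were called in FAD ChIP 2 alone. The 16 genes of presynaptic release had a median of -0.06. Unc13c, a vesicle priming gene, held 144 and 173 reads in FAD against 87 and 79 in WT, and 7 of its 11 regions were called in FAD ChIP 2 alone.

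Of 28 very long brain genes 27 had a negative log2 fold with TMM, against 1857 of all 3747 tested genes, with a median of -0.21, and with library totals the median was 0.33, below the 0.59 of all genes. None was called, and 0 were higher or lower at an unadjusted p under 0.05. Macrod2, a gene of 1997.7 kb on chromosome 2, held 524 and 699 reads over 45 regions in FAD against 678 and 641 in WT (-0.49 ± 0.23 with TMM, 0.08 with totals), and the groups overlapped in reads. The same shift was seen by number of regions: the 240 genes with 10 or more regions had a median log2 fold of -0.14, and the 1751 genes with 1 region 0.10. Without FAD 2 these medians were -0.05 and -0.04, and without the library labelled FAD 1 they were -0.28 and 0.15.

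Lists of silent gene clusters held most of the listed genes. Of 367 tested olfactory receptor genes, 209 had a positive and 158 a negative log2 fold, with a median of 0.08, and before adjustment 0 were higher and 7 lower at p under 0.05, where all tested genes gave 1.33% and 3.23%. Olfr1217 held 20 and 38 reads in FAD against 10 and 8 in WT, in 1 region called in FAD ChIP 2 alone. Olfr1241 held 2 and 7 in FAD against 15 and 16 in WT. These receptor genes have near-identical copies, so that reads may be split between them. The 91 vomeronasal and formyl peptide receptor genes had a median of -0.06 and the 98 genes of protease inhibitor and detoxification clusters 0.06. The 78 zinc-finger genes had a median of 0.10. Zfp27 held 17 and 22 reads in FAD against 4 and 5 in WT, in 1 region called in FAD ChIP 2 alone. Zfp72 held 18 and 37 in FAD against 39 and 47 in WT.

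Few genes of the pathway of the mark itself had regions. Of 24 listed H3K9 methyltransferases, demethylases and readers, 4 had a region and all 4 had a positive log2 fold, with 0 called. Prdm2, which encodes an H3K9 methyltransferase of the PR-domain family, had 1 region in its first intron with 24 and 15 reads in FAD against 1 and 5 in WT (log2 fold 2.39 ± 0.89, SE). Of 18 activity-regulated genes 3 had regions, all with a negative log2 fold. Nr4a2, an orphan nuclear receptor gene induced by neuronal activity, held 4 and 6 reads in FAD against 20 and 11 in WT, in a region centred at -32970 bp from its start. Of 20 Alzheimer disease genes 2 had regions and neither was called. No housekeeping gene had one (0 of 10).

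Per megabase the outcome was as for genes. With TMM 0 of 2241 autosomal bins passed in edgeR (0.0% called), with a smallest adjusted p of 0.825, and before adjustment 60 (2.68%) were higher and 61 (2.72%) lower at p under 0.05. DESeq2 called 1 bin, which was lower (0.044% of 2273), and had 23 higher (1.01%) and 30 lower (1.32%) before adjustment. The SD of the log2 ratio over bins was 0.45 between the FAD mice, 0.44 between the WT mice and 0.33 between the group means, where the spread within groups alone gives 0.31. The median SE of a bin was 0.20, less than the 0.52 of a gene, so the sums gained precision. Bins of 2 Mb and of 5 Mb gave 0 calls as well.

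The bin of chromosome 7 from 39000001 to 40000000, which holds the zinc-finger genes Zfp939 and Zfp619 among predicted genes, had 288 (labelled FAD 1) and 444 (FAD 2) reads in FAD against 183 and 208 in WT. Its 21 regions gave a log2 fold of 0.55 ± 0.16 (SE, n = 2 mice per group; adjusted p 0.825 in edgeR). The bin of chromosome 9 from 109000001 to 110000000 covers the Fbxw cluster of F-box genes and held 229 and 319 reads in FAD against 146 and 151 in WT (0.54 ± 0.17). Meis1, a homeobox gene of limb and blood development, is the protein-coding gene of the bin of chromosome 11 from 18000001 to 19000000, which held 279 and 349 reads in FAD against 168 and 192 in WT (0.48 ± 0.18). In these 3 bins both FAD mice lay above both WT mice in RPM, and FAD 2 was the highest. Over all 2241 tested bins, 863 had both FAD mice above both WT mice in RPM, and 12 had both below. FAD 2 lay above both WT mice in 96.0% of all tested bins, so these traits are not particular to the named bins. A bin on chromosome 5 (63000001 to 64000000, with Nwd2 and Rell1) had a log2 fold of 0.50, one on chromosome 14 (29000001 to 30000000), which takes in part of Cacna2d3, 0.43, and one on chromosome 13 (101000001 to 102000000), with the kinase subunit gene Pik3r1, 0.48. Their inputs were not higher in FAD: in the chromosome 7 bin they held 2.44 and 3.71 RPM in FAD against 5.09 and 5.42 in WT. This is not particular to these bins, since over all autosomal regions the inputs held 7790 and 6930 RPM in FAD against 8531 and 9762 in WT.

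The bins with fewer reads in FAD under TMM included deserts around a single gene. The bins at Tle4 (chromosome 19, 14000001 to 15000000), a corepressor gene, at Fhit (chromosome 14, 9000001 to 10000000) and at Slitrk5 (chromosome 14, 111000001 to 112000000) stood at -0.69, -0.60 and -0.49 with TMM and at -0.12, -0.05 and 0.06 with totals. In all 3 the library labelled FAD 1 was the lowest and FAD 2 the highest in RPM. The bin at Fhit holds 18 regions. Summed over all 50 regions given to Fhit, the log2 fold was -0.0009 with TMM and 0.54 with totals, so the gene as a whole was not lower. The beta-defensin bin of chromosome 8 (19000001 to 20000000) held 719 and 867 reads in FAD against 923 and 1290 in WT (-0.79 ± 0.22, SE), and in RPM FAD 2 lay between the WT mice. Its inputs were also lower in FAD, at 17.7 and 14.3 RPM against 23.1 and 26.9 in WT. Over all regions of chromosome 8 the inputs held 449.9 and 395.8 RPM in FAD against 538.4 and 589.9 in WT. In the bin of chromosome 2 from 144000001 to 145000000 the single region given to Ovol2 held 67.6% of the reads, and its log2 fold was -1.42 ± 0.38 (SE).

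**Figure D3:**
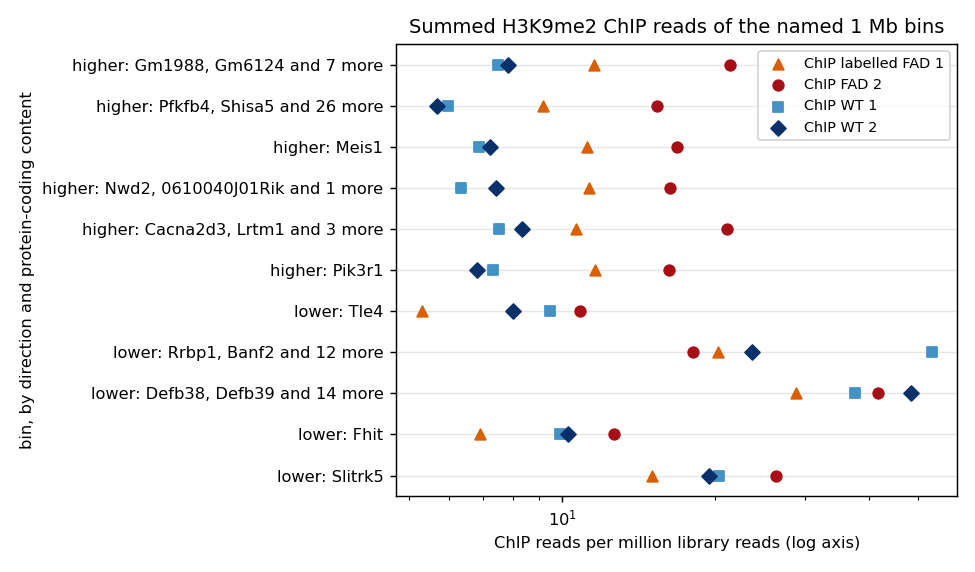
ChIP RPM (log axis) summed over the regions of each of the named 1 Mb bins, labelled by protein-coding genes they overlap, with 1 point per library and no error bars. In the bins named as higher both FAD points lie right of both WT points, whereas in the bin at Tle4 FAD 2 (10.8) lies right of both WT points (9.47 and 8.01) and the library labelled FAD 1 left of both, so that the groups overlap on this scale.

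The number of bins that passed moved with the scaling and with the library labelled FAD 1. With library totals 1 bin passed as higher (0.0446% of 2242), the one with Myh6, and bins as a whole had a median log2 fold of 0.54. Without the library labelled FAD 1, 1 bin passed as higher (0.0441% of 2269), the one with Thy1, and 6 as lower (0.264%) with TMM. With totals 1775 of 2270 passed as higher (78.2%) and 6 as lower (0.264%), with a median of 0.91. With the regions called in FAD ChIP 2 alone left out as well, 0 of 2048 bins passed as higher and 6 as lower (0.293%), with a median of -0.08. The share of bins with a positive log2 fold was 97.2% before and 43.3% after, a drop that this filter makes by its construction, as for genes. FAD 2 lay above both WT mice in RPM in 96.0% of the tested bins and the library labelled FAD 1 in 39.2%. Without FAD 2, 4 bins passed as higher with TMM (0.177%), those with Myh6, Mb, Actc1 and Trpv4, and 0 as lower. Without WT 1 5 bins were higher and 3 lower, and without WT 2 5 and 15.

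**Figure D4:**
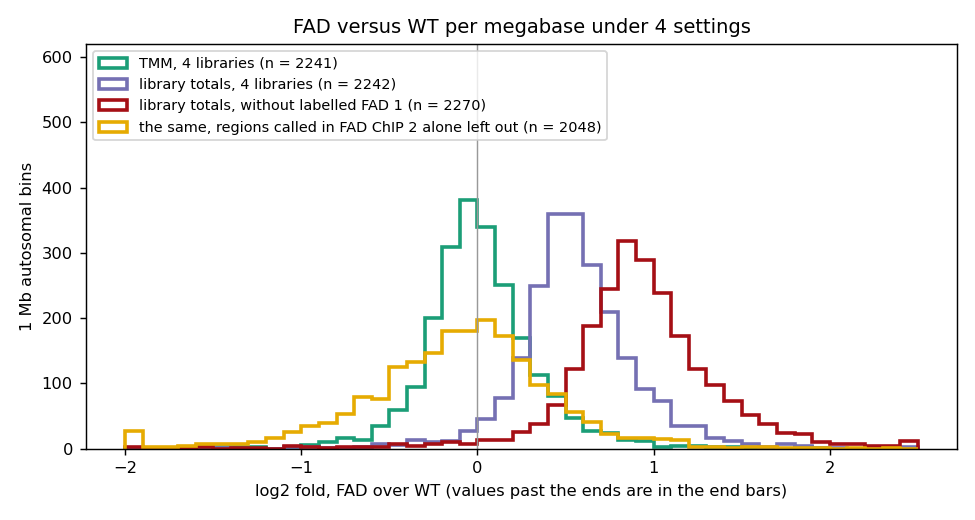
Distribution of the log2 fold (FAD over WT, horizontal axis) over 1 Mb autosomal bins (vertical axis, number of bins) under 4 settings. The median lies at 0.00 with TMM, 0.54 with library totals and 0.91 with totals and without the library labelled FAD 1, and is -0.08 when the regions called in FAD ChIP 2 alone, chosen for high values in FAD 2, are also left out.

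The shift of FAD 2 was spread over all autosomes. In sums per autosome FAD 2 lay above both WT mice in 19 of 19, by a log2 ratio to their mean of 0.72 (chromosomes 2 and 8) to 1.03 (chromosome 7). The choice of regions fixes much of this, since 60.3% of all regions were called in FAD ChIP 2 alone and are high there. The library labelled FAD 1 lay above both WT mice in 10 autosomes and below both in 2, with log2 ratios from -0.07 (chromosome 8) to 0.17 (chromosome 5). Gene density moved the TMM fold little: the median was -0.05 in the 268 bins with no protein-coding gene, 0.03 in the 821 with 4 to 10 genes and 0.07 in the 171 with more than 20. By the mean ratio of ChIP to input of the 4 mice, the 560 least enriched bins had a median of 0.11 and the 45 bins in the highest 2 percent -0.08. Without the library labelled FAD 1 these were 0.21 and -0.38, and without FAD 2 they were 0.00 and 0.02. In the 560 least enriched bins, FAD 2 had a median log2 ratio of ChIP to input of 2.31, against 0.80 and 0.58 in WT. The library labelled FAD 1 had 0.98. This order is not particular to those bins, since FAD 2 had the highest median in every class. In the highest 2 percent its median was 2.89, WT had 2.07 and 1.56, and the library labelled FAD 1 had 2.39. The classes were cut by the ratios of these same libraries, so these medians are a description.

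A few loci had far more ChIP reads than input reads in every mouse. At Ovol2 the levels were 11.4 and 4.42 RPM in FAD against 45.1 and 15.8 in WT. At 4922502D21Rik (chromosome 6, 129334981 to 129335221) they were 5.97 and 1.39 in FAD against 13.8 and 5.08 in WT, and the log2 fold was -1.60 ± 0.72 (SE), -3.79 without the library labelled FAD 1 (adjusted p 1.43e-15 in edgeR) and -0.72 without FAD 2. In the bin of chromosome 13 from 108000001 to 109000000, which includes part of the phosphodiesterase gene Pde4d, they were 14.88 and 14.95 in FAD against 42.0 and 13.5 in WT. There 1 of the 15 regions held 62.4% of the ChIP reads, with 212 and 40 in FAD against 849 and 190 in WT. WT 1 was the highest library at all 3, and the groups overlapped at the latter pair. Among the 75 genes in the highest 2 percent by ChIP over input, mouse 1 lay above mouse 2 in both groups in 19, against 7.1% of all tested genes. FAD 2 was the lowest library in 8, against 4.5%. The members were chosen by enrichment of the same libraries, so these shares are a description.

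A cluster of multi-copy genes near the beta-defensins on chromosome 8 had fewer reads in FAD in ChIP. Gm15319 held 213 and 166 reads over 11 regions in FAD against 458 and 585 in WT, between 20331813 and 20372169 (log2 fold -1.75 ± 0.33, SE). Both FAD mice lay below both WT mice. It was the gene DESeq2 called and the gene edgeR called when only overlapping regions were summed. Gm21119 (190 and 200 against 281 and 361 reads) and Gm31371 (117 and 137 against 177 and 282) lie nearby, as does 4930467E23Rik (97 and 76 against 148 and 189), and their log2 folds were -1.06, -1.21 and -1.27. The neighbouring bin of chromosome 8 (20000001 to 21000000) held 85.97 and 123.1 RPM in FAD against 132 and 162 in WT, and its inputs held 49.9 and 39.3 in FAD against 89.1 and 87.6 in WT. As ChIP over input, the bin had a log2 fold of 0.49 and Gm15319 one of -0.27. Copies of these genes share sequence, so they are not independent. The part that input levels play in the ChIP difference was not tested.

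Heart muscle genes were the 3 genes called as higher with library totals and 5 of the 15 called as higher without FAD 2. Of 30 listed genes 8 had regions, 34 regions in all, and their summed levels were 86.3 RPM in the library labelled FAD 1, 28.7 in FAD 2, and 15.8 and 12.9 in WT. The inputs held 9.06, 12.2, 9.85 and 9.40 RPM. Of the 34 regions 16 were called in the library labelled FAD 1 alone, and 13 of those 16 were centred on an exon or untranslated region, against 3.93% of all 3159 regions called in that library alone. Defining heart genes without any region included Myh7, Tnnt2, Tnni3 and Myl2.

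Myh6, the cardiac myosin heavy chain gene, held 771 (labelled FAD 1) and 69 (FAD 2) reads in FAD against 66 and 47 in WT. Its log2 fold was 2.79 ± 0.92 (SE) with all mice and -0.47 without the library labelled FAD 1. Actc1, cardiac alpha-actin, held 470 and 46 reads in FAD against 31 and 21 in WT, with 3.20 and 0.07. Mb, myoglobin, held 229 and 9 reads in FAD against 3 and 8 in WT, and it did not pass the filter with TMM. Lpl, lipoprotein lipase, held 234 and 12 reads in FAD against 25 and 23 in WT, so that its direction turned without the library labelled FAD 1 (from 2.25 to -1.73). In these 4 genes that library alone stood apart, at levels of 9.18 to 30.9 RPM. It was not the highest at Ryr2, the cardiac ryanodine receptor, with 155 and 273 reads in FAD against 161 and 135 in WT, nor at Tbx20, a heart transcription factor gene, with 10 and 18 in FAD against 9 and 8 in WT, and FAD 2 was the highest at both. Ttn, the giant sarcomere protein titin, held 243 and 143 reads in FAD against 84 and 85 in WT, and its log2 fold was 0.93 with and 0.01 without that library. Nppb, whose promoter is printed above, held 40 and 27 reads in FAD against 8 and 15 in WT (1.25 ± 0.60, SE, and 0.49 without it). Trpv4, an ion channel gene that is not in the list, had the same pattern with 1286 and 296 reads in FAD against 322 and 232 in WT, and 6 of its 9 regions were centred on exons.

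Families on the X chromosome were also higher in the library labelled FAD 1. Btbd35f29 held 1315 and 522 reads over 10 regions in FAD against 269 and 477 in WT, and its inputs held 7.35 RPM in FAD 2 and 23.5 in the library labelled FAD 1, with 9.68 and 8.88 in WT. The log2 fold was 1.12 ± 0.51 (SE), and -0.25 without that library. Gm21870 held 52 and 28 reads in FAD against 5 and 5 in WT (2.71 ± 0.69, SE), and 1.72 without it. Over the 166 regions of the X chromosome the ChIP libraries held 232 and 195 RPM in FAD against 126 and 146 in WT, and the inputs 54.0 to 90.9. Sex is not stated in the labels, and its part in these values was not tested.

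**Figure D5:**
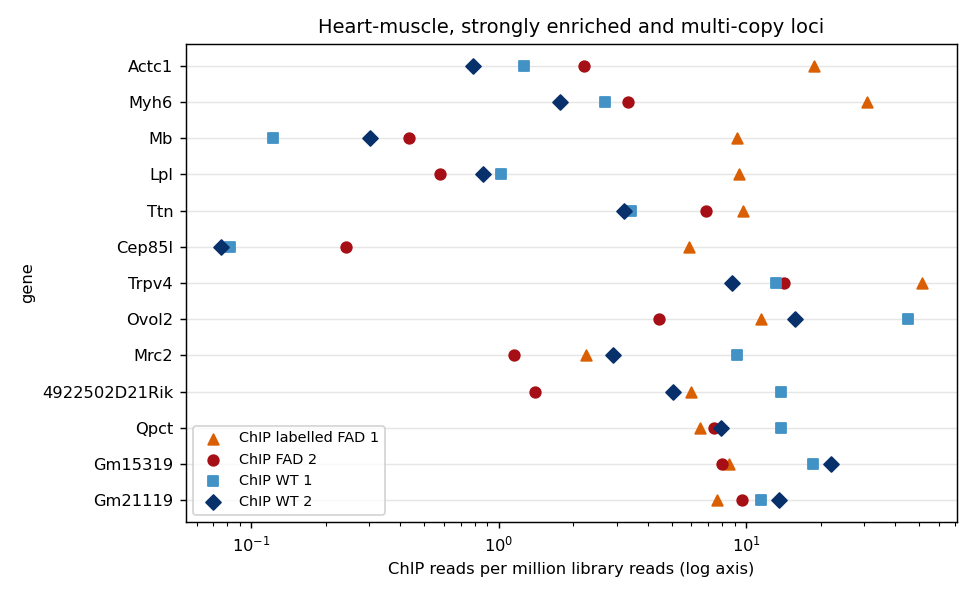
ChIP RPM (log axis) for heart muscle genes and others high in the library labelled FAD 1 (Actc1 to Trpv4), strongly enriched loci (Ovol2 to Qpct) and multi-copy genes of chromosome 8, with 1 point per library and no error bars. The library labelled FAD 1 stands alone at the right for Actc1, Myh6, Mb, Lpl and Cep85l, WT 1 is the highest from Ovol2 to Qpct, and both FAD points lie left of both WT points at Gm15319 and Gm21119.

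The inputs, summed and tested in the same way, gave 0 calls among 1300 genes and 0 among 2055 bins with TMM in edgeR. At an unadjusted p under 0.05, 37 genes were higher and 28 lower, and 62 bins were higher and 52 lower. With library totals the inputs were lower in FAD, with a median log2 fold of -0.33 over genes and -0.35 over bins. At an unadjusted p under 0.05 in edgeR, 88 genes (7.02%) were then lower and 8 (0.638%) higher. For bins these counts were 296 (14.5%) and 4 (0.196%). With the ratio of ChIP to input as the measure (limma, 1 read added to each count), 0 of 3747 genes passed, and the median log2 fold was 0.86. Before adjustment 267 genes (7.13%) were higher and 21 (0.560%) lower at p under 0.05. For bins 12 of 2241 passed as higher (0.535%) and 0 as lower, and the median was 0.84. The ratio is scaled by library totals, so it takes in the lower inputs of FAD as well as any ChIP difference.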

How the data were processed

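H3K9me2 ChIP and input libraries of 2 FAD and 2 WT mice were used, as the deposited FAD against WT table gives them. The submitters' processing notes list BWA 0.7.12, MACS2 2.1.0, Trimmomatic and FastQC and the build mm9. The table's coordinates fit GRCm38.p6, however, where the table's own gene coordinates overlapped those of RefSeq for 99.7% of 3517 shared symbols, so GRCm38 is given. The deposited count columns hold whole reads per region and library, per the file headers. The deposited RPM is the count with 1 added, multiplied by a factor fixed for each library (largest relative deviation 4.68e-06), from which library totals were taken.

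The 34413 rows were reduced to 33787 regions, and counts were summed per gene (overlapping symbol, otherwise closest start) and per 1 Mb autosomal bin. Sums were tested with the quasi-likelihood test of edgeR 4.0.16 (R 4.3.3), scaled by TMM, filtered by its default and without a replicate block. P-values were adjusted by Benjamini-Hochberg over all tested sums (threshold 0.05), and SE is the size of the log2 fold divided by the root of F. Where nothing says that mice of a group were raised or processed apart, p-values measure only the spread between these samples. The steps were tested on simulated data. Alternatives were library totals, DESeq2 1.42.0 and its size factors, other filters, a replicate block, each library left out, ChIP over input (limma 3.58.1, 1 read added), sets of regions, gene assignments and bin widths. Genes were named by rule: per direction, the 10 of lowest p out of tested genes at or above the median count and with the same direction in both replicate numbers, without predicted genes, and for bins the 6 in each direction, of which 1 bin is not reported here. From each list the member with the smallest p in a direction could be added. Members, lists and rules were chosen with earlier results of these data known, and genes of the heart, Thy1, chromosome 8, X chromosome and strongly enriched paragraphs after their values were seen.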

Additional observations from a re-analysis of the deposited data

How the results depend on the processing

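With 2 mice per group the results rest on single libraries, and a tested gene had a median of 24.5 reads per library, so differences of modest size were not detectable. The counts of calls, 0 with TMM and all 4 ChIP libraries, changed as follows. For genes there were 3 calls with library totals, 1 with DESeq2, 3 (Ovol2, Mrc2 and 4922502D21Rik, all lower) with a replicate block and 1 with overlapping genes only. For bins there were 1 with library totals, 1 with DESeq2, 13 (3 higher and 10 lower) with a replicate block, 12 as ChIP over input and 2 in regions called in at least 2 libraries. The replicate numbers are shared labels: deviations of same-numbered mice correlated at 0.061 over genes and 0.10 over bins, with only 2 pairs. Leaving out 1 ChIP library gave 0 to 30 calls for genes (30 without the library labelled FAD 1) and 4 to 20 for bins (20 without WT 2) with TMM. With library totals the counts were 555 and 1781 without the library labelled FAD 1, 18 and 4 without FAD 2, 1 and 0 without WT 1, and 0 and 0 without WT 2. With the regions called in FAD ChIP 2 alone left out there were 13 gene calls, and in settings chosen after seeing the data 14 gene and 2 bin calls with library totals, 4 and 5 without the library labelled FAD 1, and 5 and 6 with both. Input sums gave 1 gene and 1 bin with library totals, 1 and 1 with no filter, 2 and 1 with a replicate block, and 1 to 9 genes and 0 to 1 bins with 1 input left out. Among these alternatives the cause of a changed count was not tested beyond what the left-out libraries and regions show.

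Named values changed direction mainly where TMM and library totals disagree. With library totals the log2 fold turned positive at Macrod2 (0.08) and the bin at Slitrk5 (0.06). With totals and without the library labelled FAD 1 it was 0.37 at Gabra2, 0.34 at Slitrk5, 0.11 at Cdh7, 0.38 at Macrod2 and 0.08 at Zfp72, in bins 0.31 at Tle4, 0.32 at Fhit and 0.41 at Slitrk5, and -0.70 at Lpl. With totals and without WT 1 it was 0.14 at Gabra2, 0.20 at Slitrk5, 0.18 at Macrod2, and in bins 0.01 at Tle4, 0.09 at Slitrk5 and 0.14 at Pde4d (chromosome 13). With totals and without WT 2 it was 0.03 in the bin at Slitrk5. As ChIP over input it was 0.35 at Gabra2, 0.28 at Macrod2, -0.14 at Lpl, 0.39 at Gm21119, 0.19 at Gm31371, and 0.34 and 0.49 in the beta-defensin bin of chromosome 8 and its neighbour. In regions called in at least 2 libraries it was 0.10 at Cdh7 and 0.09 in the bin of Ovol2. With the regions called in FAD ChIP 2 alone and the library labelled FAD 1 both left out, it was 0.05 at Slc22a28, 0.13 at Gabra2, 0.14 at Slitrk5, 0.14 at Zfp72, -0.63 at Lpl and -0.07 in the bin of Actc1, and with library totals as well 0.05 at Gabra2, 0.04 at Slitrk5, 0.08 at Zfp72, -0.70 at Lpl and -0.13 in that bin. With 1 ChIP library left out and TMM, the values ranged from -0.47 to 3.73 at Myh6 and from -1.73 to 3.25 at Lpl. They ranged from -0.66 to 2.17 at Trpv4, from -0.25 to 1.80 at Btbd35f29, and in bins from -0.34 to 3.74 at Myh6, from -0.66 to 1.71 at Actc1 and from -0.54 to 2.19 at Trpv4. The cause of these changes was not tested.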
